A study of Mus musculus with 13 samples.

Results

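Cd4, Cd8a, Cd8b1, Cd44, Il2ra, Cd24a, Kit, Zbtb7b, Runx3 and Tox, the genes of the CD4 and CD8 coreceptors, of surface proteins used to stage thymocytes and of transcription factors of the CD4 and CD8 lineages, were examined in T cell lymphomas of mice. They were chosen by name and make up 10 of the 43629 genes in the deposited expression table. All 10 were found once in the table and passed the filter on low values. RNA from single-cell suspensions of 10 thymic lymphomas and of 3 wild-type (WT) thymuses was sequenced as polyA RNA, 1 library each from 13 mice. Of the lymphomas, 5 came from Atm-/- mice of strain 129S6/SvEv, which lack the ATM kinase of the DNA damage response. The other 5 came from Rag2c/c p53-/- mice of mixed C57BL/6 and 129S6/SvEv background. These carry a RAG2 recombinase subunit shortened at its C terminus (352 is the allele number) and lack the tumor suppressor p53. The 3 WT thymuses were of strain C57BL/6 and were re-used from another series of the same authors. Age and sex are not stated in the sources used here, and each lymphoma is 1 tumor of 1 mouse. Strain and series go with genotype, so their share in any difference between groups cannot be told apart from that of genotype or of transformation.

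T cells develop in the thymus through stages named after CD4 and CD8. Progenitors lack both coreceptors (double negative, DN). The earliest DN cells express the stem cell factor receptor Kit and the adhesion receptor CD44, and later ones gain the interleukin-2 receptor alpha chain (Il2ra, CD25) under Notch signaling. After a T cell receptor beta chain is made, cells lose CD25 and express both coreceptors (double positive, DP), which is the bulk of a normal thymus. Selection then yields CD4 or CD8 single-positive (SP) cells: TOX is needed for the CD4 lineage, ThPOK (Zbtb7b) sets CD4 fate, and RUNX3 represses Cd4 and Zbtb7b and sets CD8 fate. CD24 is high on immature thymocytes and is lost as SP cells mature. In bulk RNA, fewer cells of a type and less RNA per cell cannot be told apart.

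The coreceptor genes lie on chromosome 6 of GRCm38. Cd4 (ENSMUSG00000023274) spans chr6:124864692-124888221 on the minus strand. Cd8a (ENSMUSG00000053977, chr6:71373427-71379171) and Cd8b1 (ENSMUSG00000053044, chr6:71322836-71337477) are neighbors on the plus strand and encode the alpha and beta chains of CD8. Among the stage markers, Cd44 (ENSMUSG00000005087) is at chr2:102811141-102901665 on the minus strand and Il2ra (ENSMUSG00000026770) at chr2:11642807-11693193 on the plus strand. Cd24a (ENSMUSG00000047139, chr10:43579169-43584262) and Kit (ENSMUSG00000005672, chr5:75574916-75656722) are on plus strands. Of the transcription factors, Zbtb7b (ENSMUSG00000028042) is at chr3:89377644-89394776 on the minus strand. Runx3 (ENSMUSG00000070691) is at chr4:135120652-135177990 on the plus strand. Tox (ENSMUSG00000041272) is at chr4:6686353-6991557 on the minus strand. Values are sums over all exons of a gene.

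Runx3 and Zbtb7b, the members that differed from WT thymus in the Rag2c/c p53-/- lymphomas, each have more than 1 start, which values per gene do not separate. Their promoters, with that of Cd8a, are shown because RUNX proteins bind a short core, TGTGGT, that can be read in the letters. Sequences are from RefSeq (GRCm38.p6), 250 bases before to 50 bases after a start, 5′ to 3′ on the strand of the gene, with TGTGGT or its reverse complement ACCACA in capitals. These 2 motifs do not overlap in the windows shown. RefSeq promoters were matched for 6 of the 10 members (9 windows), and none was found here for Cd4, Cd8b1, Cd24a and Tox.
Runx3, upstream start, chr4:135120395-135120694, plus strand: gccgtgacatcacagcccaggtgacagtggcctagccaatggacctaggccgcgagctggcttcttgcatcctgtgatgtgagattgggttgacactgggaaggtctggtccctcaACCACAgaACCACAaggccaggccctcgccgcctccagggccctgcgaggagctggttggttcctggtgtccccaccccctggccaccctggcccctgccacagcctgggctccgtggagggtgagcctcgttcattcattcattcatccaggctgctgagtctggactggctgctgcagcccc
Runx3, downstream start, chr4:135152295-135152594, plus strand: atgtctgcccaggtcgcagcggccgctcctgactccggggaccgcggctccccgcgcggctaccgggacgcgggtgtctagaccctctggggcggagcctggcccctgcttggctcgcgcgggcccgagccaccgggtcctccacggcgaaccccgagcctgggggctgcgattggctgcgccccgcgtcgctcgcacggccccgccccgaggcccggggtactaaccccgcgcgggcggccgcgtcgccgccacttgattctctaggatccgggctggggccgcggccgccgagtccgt
Zbtb7b, downstream start, chr3:89387622-89387921, minus strand: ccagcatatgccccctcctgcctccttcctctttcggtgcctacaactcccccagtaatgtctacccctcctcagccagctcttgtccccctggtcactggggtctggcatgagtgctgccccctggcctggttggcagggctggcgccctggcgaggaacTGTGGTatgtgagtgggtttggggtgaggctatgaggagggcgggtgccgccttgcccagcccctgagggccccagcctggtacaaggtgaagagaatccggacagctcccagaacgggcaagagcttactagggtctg
Cd8a, chr6:71373177-71373476, plus strand: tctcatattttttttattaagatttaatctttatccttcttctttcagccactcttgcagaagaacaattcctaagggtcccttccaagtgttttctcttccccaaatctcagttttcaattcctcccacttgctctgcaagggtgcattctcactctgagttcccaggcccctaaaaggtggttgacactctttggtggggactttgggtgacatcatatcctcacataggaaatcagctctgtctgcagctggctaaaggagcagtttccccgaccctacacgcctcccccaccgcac
The upstream Runx3 window held the motif at 2 places, whose first bases are 134 and 126 bases before the start. The Zbtb7b window shown held it once, 89 bases before the start. No match to TGTGGT or ACCACA was present in the other 7 windows of members. These are the downstream Runx3 start, the upstream Zbtb7b start, Cd8a, Il2ra, Cd44 and 2 nearly identical Kit windows. Other forms of the core were not searched. Of 32851 RefSeq promoters of 300 bases, 16.8% held the motif on either strand, so a match is common and is no evidence of binding.

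The libraries differed in depth. The table holds normalized counts, and the reads per library, in M, were estimated from the size of the steps between low values. They ranged from 6.68 to 39.2 M in WT thymus, from 9.23 to 23.6 M in Atm-/- lymphomas and from 6.37 to 24.8 M in Rag2c/c p53-/- lymphomas. WT thymus 2, Atm-/- lymphoma 2 and Rag2c/c p53-/- lymphoma 2 had under 10 M. T cell genes were abundant in all libraries: Lck, a kinase of T cell receptor signaling, lay between 15165 and 30142, and none of the 10 T cell identity genes was called higher, while Cd5 was called lower in both lymphoma groups and Ptprc in the Rag2c/c p53-/- group. Atm lay at 208 to 732 in Atm-/- lymphomas and at 1559 to 2274 in WT thymus, and the Rag2c/c p53-/- lymphomas, at 439 to 1315, were also below all WT thymuses. Trp53 (2018 to 5461) and Rag2 (260 to 790) transcripts were present in the Rag2c/c p53-/- lymphomas, and whether reads of the deleted or altered parts are among them cannot be seen in values per gene.

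Across the 10 members, a gene was called changed when limma gave an adjusted p below 0.05 over 15872 genes with a change of at least 1 on the log2(value + 1) scale. In Atm-/- lymphomas against WT thymus, 4 of 10 members were called, all lower (Cd8a, Cd8b1, Tox and Kit), where 29.5% of all genes tested were called and 17% were called lower. In Rag2c/c p53-/- lymphomas against WT thymus, 2 of 10 were called, Zbtb7b lower and Runx3 higher, where 23.6% of all genes were called, 13.9% lower and 9.77% higher. No member was called in both. Between the lymphoma groups 2 members were called, Cd8b1 and Kit, both lower in Atm-/-, beside 7.84% of all genes (4.33% lower and 3.51% higher). Against WT thymus the shares of members called lie near those of all genes. The comparisons share the WT thymuses, so their values are given side by side only. Samples of a group came from different mice, and the p-values measure the spread between these samples.

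**Figure D1:**
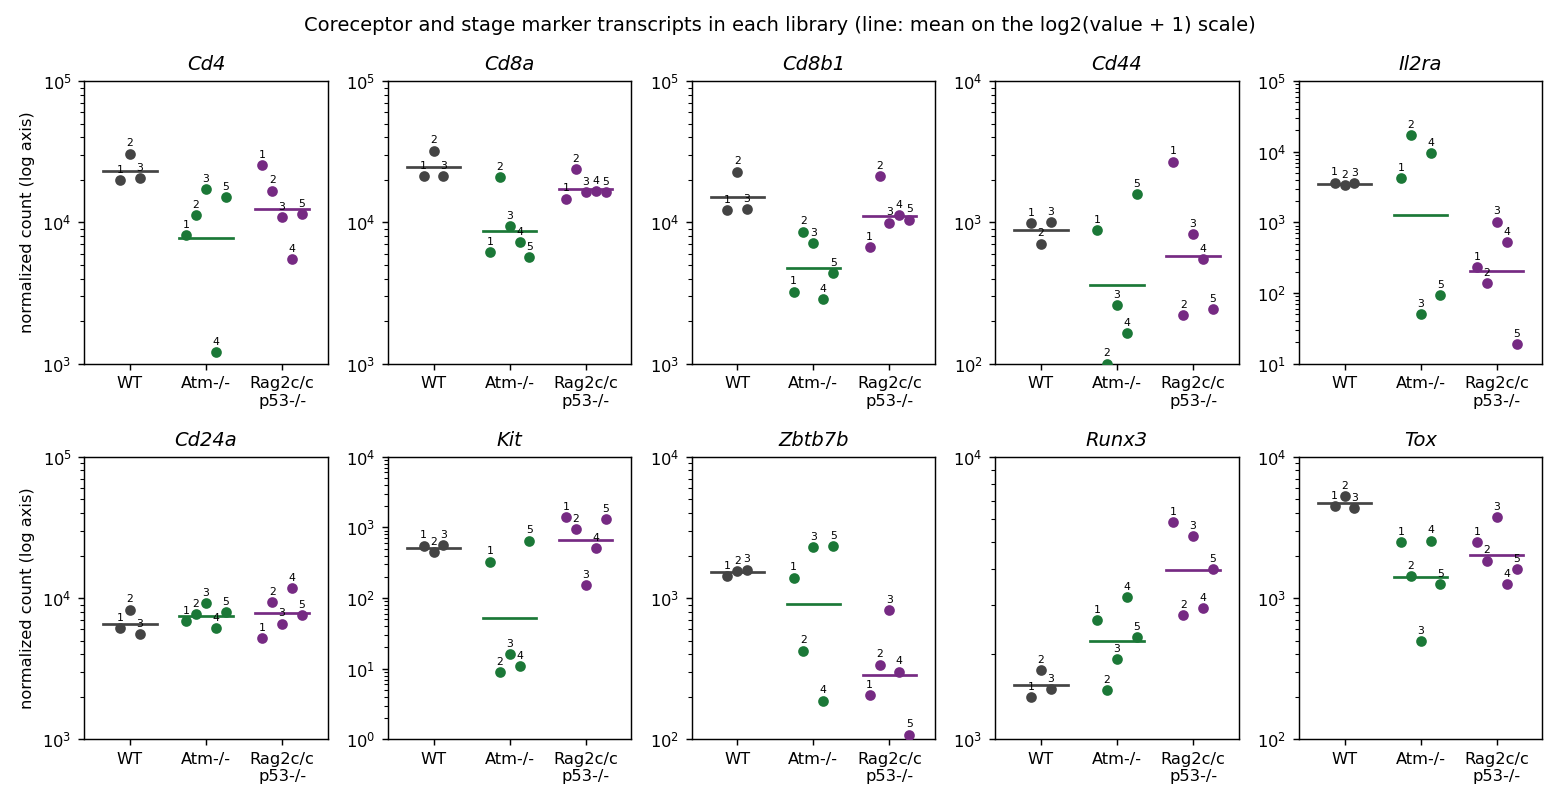
Normalized counts of the 10 members (log axes) in 3 WT thymuses, 5 Atm-/- lymphomas and 5 Rag2c/c p53-/- lymphomas. Points are libraries, numbered within a group, and lines are means on the log2(value + 1) scale; Cd4, Cd8a, Cd8b1 and Tox of all Atm-/- lymphomas sit below all WT thymuses, and Il2ra and Kit of the Atm-/- group spread from 50 to 17248 and from 9 to 648.

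The CD8 chains were lower in Atm-/- lymphomas. Cd8a was at 21284, 32183 and 21332 in WT thymuses 1 to 3. It was at 6145, 20872, 9366, 7257 and 5674 in Atm-/- lymphomas 1 to 5. It was at 14721, 23709, 16319, 16564 and 16374 in Rag2c/c p53-/- lymphomas 1 to 5. All 5 Atm-/- lymphomas were below all WT thymuses, though Atm-/- lymphoma 2 only just, while the Rag2c/c p53-/- lymphomas were close to each other, with number 2 within the WT range. Cd8a fell by 1.49 on the log2 scale in Atm-/- lymphomas (SE 0.35, limma adjusted p = 0.00372). The log2 difference of Rag2c/c p53-/- lymphomas from WT was -0.50 (95% interval -1.24 to 0.24, limma adjusted p = 0.272).

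Cd8b1, whose product pairs with CD8 alpha on thymocytes, gave a like picture. Its counts were 12182, 22857 and 12381 in WT thymus and 3235, 8612, 7176, 2850 and 4365 in Atm-/- lymphomas. Rag2c/c p53-/- lymphomas were at 6723, 21115, 9973, 11224 and 10479. The Atm-/- values were again all below WT, with a decrease of 1.66 (SE 0.40, limma adjusted p = 0.00487), and 4 of 5 Rag2c/c p53-/- lymphomas were below WT by a smaller amount (log2 difference -0.45, SE 0.40, adjusted p = 0.401). Between the lymphoma groups Cd8b1 was lower in Atm-/- by 1.21 log2 units (-1.21, SE 0.35, limma adjusted p = 0.0388), but Atm-/- lymphomas 2 and 3 overlapped the lowest Rag2c/c p53-/- lymphoma. No member separated the lymphoma groups without overlap, where 8.33% of all genes did. The Cd8b1 call was lost without Atm-/- lymphoma 1, 4 or 5 or Rag2c/c p53-/- lymphoma 2, 3, 4 or 5, at adjusted p of up to 0.0941. It was also lost when only the 2 lymphoma groups were fitted. The Cd8a difference between the lymphomas was -0.99 (SE 0.30, adjusted p = 0.0469), just short of the fold threshold.

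The shallow libraries held the highest CD8 values of each group. WT thymus 2 was 1.51 times the mean of WT thymuses 1 and 3 for Cd8a, 1.86 times for Cd8b1 and 1.52 times for Cd4. Among the 10 lymphomas, centered within genotype, Cd8a and Cd8b1 correlated with log2 estimated reads at r = -0.69 and r = -0.68 (a description, n = 10). The Atm-/- differences were as large with reads as a covariate (-1.69 for Cd8a and -1.91 for Cd8b1, limma adjusted p = 0.000476 and 0.000438) and without the 3 libraries under 10 M reads (-1.61 and -1.58, limma adjusted p = 0.000194 and 0.00453). Without those libraries the Cd8a difference between the lymphomas also passed (-1.20, limma adjusted p = 0.00093), as did Cd8b1 (-1.19, adjusted p = 0.0223).

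Cd4 was the more uneven coreceptor. It was at 19831, 30705 and 20517 in WT thymus, at 8127, 11240, 17284, 1201 and 15187 in Atm-/- lymphomas and at 25455, 16748, 10906, 5470 and 11447 in Rag2c/c p53-/- lymphomas. All 5 Atm-/- lymphomas were below WT, and Atm-/- lymphoma 4 stood far below the other 4. Rag2c/c p53-/- lymphoma 1 was within the WT range and the other 4 were below it. The log2 difference in Atm-/- lymphomas was -1.57 (95% interval -3.11 to -0.04, limma adjusted p = 0.0868), which did not pass, and was -0.90 without Atm-/- lymphoma 4 (adjusted p = 0.107). It passed with library weights, at -1.09 (limma adjusted p = 0.0285). That of Rag2c/c p53-/- lymphomas was -0.91 (SE 0.71, adjusted p = 0.335). Groups without overlap, as for Cd4, Cd8a, Cd8b1 and Tox in Atm-/- lymphomas, were seen for 51.3% of all genes in that comparison.

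The balance of the coreceptors was tight in the thymus and scattered in the tumors. The ratio of the Cd4 to the Cd8a count was 0.93, 0.95 and 0.96 in WT thymuses. It was 1.32, 0.54, 1.85, 0.17 and 2.68 in Atm-/- lymphomas 1 to 5. It was 1.73, 0.71, 0.67, 0.33 and 0.70 in Rag2c/c p53-/- lymphomas 1 to 5. The lymphomas thus lay on both sides of the WT ratio, 3 of 5 above it in Atm-/- and 1 of 5 in Rag2c/c p53-/-. On the log2 scale the ratio was -0.16 ± 1.61 (SD, n = 5) in Atm-/-, -0.48 ± 0.85 (SD, n = 5) in Rag2c/c p53-/- and -0.08 ± 0.02 (SD, n = 3) in WT. The means did not differ by the exact two-sided permutation test (p = 1.0, 0.464 and 0.698 for the 3 comparisons). The Cd8a to Cd8b1 ratio was 0.86 ± 0.47, 0.64 ± 0.34 and 0.69 ± 0.17 (log2, SD) in the same groups. Its SD was smaller than that of Cd4 to Cd8a in both lymphoma groups, and larger in WT. The means did not differ by the same exact test (p = 0.5, 0.786 and 0.413).

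Of the stage markers, Il2ra varied most between tumors. It was at 3662, 3375 and 3597 in WT thymuses, which hardly differed. In Atm-/- lymphomas 1 to 5 it was at 4204, 17248, 50, 9640 and 93. In Rag2c/c p53-/- lymphomas 1 to 5 it was at 234, 138, 1023, 521 and 19. Atm-/- lymphomas 1, 2 and 4 were above all WT thymuses and 3 and 5 far below, leaving no lymphoma of either genotype within the WT range. The SD of log2 values in the Atm-/- group, 3.92, was larger than that of 99.83% of the genes tested, and in the Rag2c/c p53-/- group, 2.17, larger than that of 97.78%. All Rag2c/c p53-/- lymphomas were below WT, with a log2 difference of -4.12 (95% interval -7.94 to -0.31, limma adjusted p = 0.0824). That difference passed when only these 2 groups were fitted (adjusted p = 0.0124) and with library weights (adjusted p = 0.00566). The fit of 3 groups shares 1 error, in which the wide spread of the Atm-/- group enters. No overlap was seen for 43.9% of all genes in this comparison. For Atm-/- the interval was -5.29 to 2.34, which spans large changes of the mean both ways, although with library weights Il2ra was called lower there too (-2.82, limma adjusted p = 0.0475). A transcript annotated on the same strand, RP23-114B13.6, overlaps Il2ra and reached at most 98.

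Kit split the Atm-/- lymphomas another way. Its counts were 552, 445 and 555 in WT thymus and 327, 9, 16, 11 and 648 in Atm-/- lymphomas. They were 1382, 952, 152, 513 and 1305 in Rag2c/c p53-/- lymphomas. Atm-/- lymphomas 2, 3 and 4 had almost no Kit, 1 and 5 had about the WT level, and 3 of 5 Rag2c/c p53-/- lymphomas were above WT. A single read was worth an estimated 2.29, 1.55 and 1.88 normalized counts in Atm-/- lymphomas 2, 3 and 4, so their Kit values rest on few reads. Kit was called lower in Atm-/- than in WT (log2 -3.27, SE 1.26, limma adjusted p = 0.0491) and than in Rag2c/c p53-/- (-3.65, SE 1.09, limma adjusted p = 0.0457). Both calls lay at the threshold and were lost in 11 of 17 and 11 of 19 alternatives, among them leaving out Atm-/- lymphoma 2, 3 or 4 (adjusted p = 0.0976, 0.0972 and 0.101 against WT) or any WT thymus (0.12, 0.0992 and 0.121). The Rag2c/c p53-/- difference from WT was 0.38 (SE 1.26, adjusted p = 0.835).

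Cd44, the other marker of the earliest DN cells and also of activated T cells, was at 988, 708 and 1000 in WT thymus. It was at 880, 100, 261, 164 and 1575 in Atm-/- lymphomas and at 2693, 220, 825, 550 and 243 in Rag2c/c p53-/- lymphomas. Within Atm-/-, the order of the lymphomas was that of Kit at the top, with 5 and 1 highest, whereas in Rag2c/c p53-/- lymphomas 2 and 5 combined low Cd44 with high Kit. Neither difference from WT passed (-1.30, SE 0.89, adjusted p = 0.246, and -0.61, SE 0.89, adjusted p = 0.615). Cpa3, a protease gene of mast cells and of early progenitors, moved with Kit in the Atm-/- lymphomas at 653, 84, 48, 8 and 554 and not in Rag2c/c p53-/- lymphomas at 47, 236, 417, 37 and 10. The other 5 mast cell markers did not pass the filter on low values, so their summed level rests on Cpa3. The part of other cells in the Kit values was not tested.

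Cd24a, the marker of immature thymocytes, did not differ past the test. It was at 6133, 8274 and 5535 in WT thymus, 6830, 7659, 9239, 6096 and 7916 in Atm-/- and 5196, 9375, 6595, 11829 and 7531 in Rag2c/c p53-/- lymphomas. The groups overlapped throughout. The log2 differences from WT were 0.19 (95% interval -0.32 to 0.70) and 0.25 (-0.26 to 0.76), so a 2-fold change of the mean lies outside both intervals. Its SD in the Atm-/- group, 0.23, was smaller than that of most genes tested (21.43% had a smaller one). Its SD in Rag2c/c p53-/- lymphomas, 0.46, was above the 0.26 of Cd8a there.

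**Figure D2:**
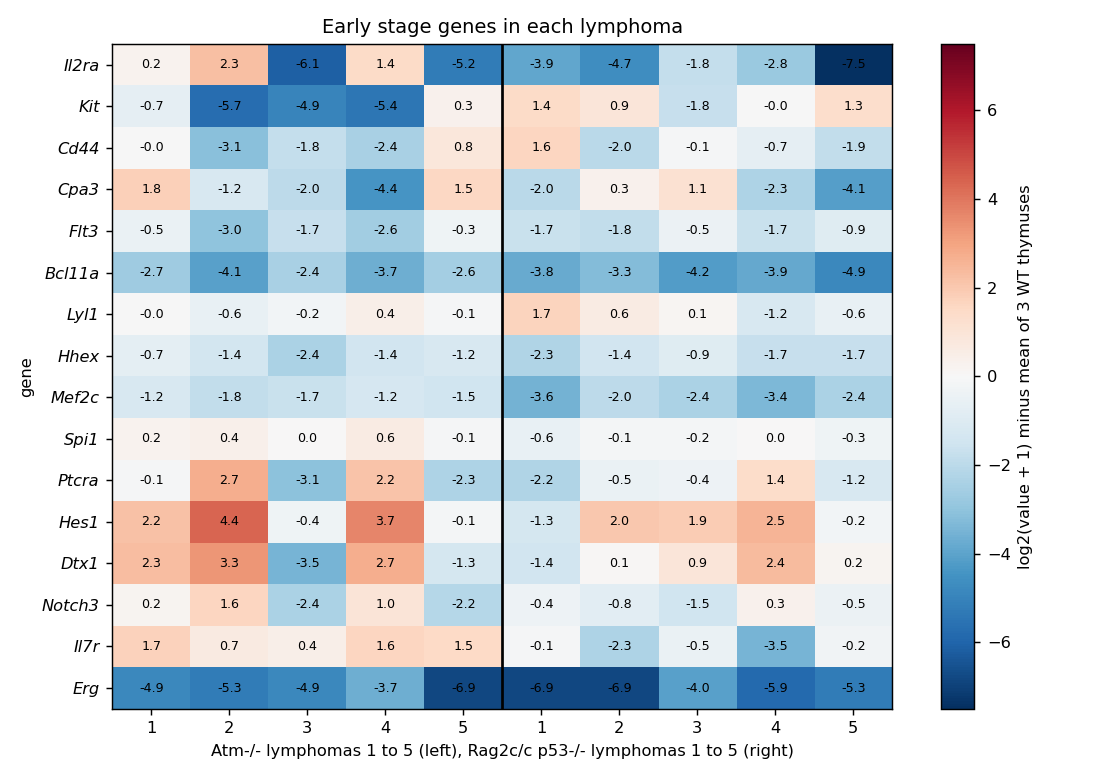
Difference of log2(value + 1) from the mean of the 3 WT thymuses for Il2ra, Kit, Cd44, Cpa3 and the 12 listed DN genes, in each of 10 lymphomas (columns, numbered within genotype). Il2ra, Dtx1, Hes1, Ptcra and Notch3 are highest in Atm-/- lymphomas 2 and 4 and lower in 3 and 5, and Kit, Cd44 and Cpa3 of the Atm-/- group are highest in 1 and 5.

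The genes listed for the DN stage did not move as a block. Of 12, none was called higher and 5 were called lower in Atm-/- lymphomas (median log2 difference -0.24, against -0.02 over all genes tested), and 4 were called lower in Rag2c/c p53-/- lymphomas (median -0.95, against -0.02). Of all genes tested, 17% and 13.9% were called lower in these comparisons. The transcription factor Erg, which is switched off as T cells commit, went from 104 to 123 in WT thymus to 0 to 8 in Atm-/- lymphomas (log2 -5.10, limma adjusted p = 0.000167) and to 0 to 6 in Rag2c/c p53-/- lymphomas (-5.77, adjusted p = 0.000111). Bcl11a, another progenitor factor, was lower too (-3.08 and -3.98, adjusted p = 0.000228 and 6.01e-05). Markers of B cells and dendritic cells, given below, were also lower, and the part of other cells in the Erg and Bcl11a values was not tested. Other members of the list, chosen after their values were seen, lay high in the Atm-/- lymphomas with high Il2ra. The Notch target Dtx1 was at 8025, 16369, 144, 10894 and 664 in Atm-/- lymphomas 1 to 5, beside 1451 to 1852 in WT. Hes1, also a Notch target, was at 1221, 5520, 211, 3418 and 248, beside 247 to 315 in WT. Ptcra, the pre-T cell receptor alpha chain, was at 1134, 8050, 143, 5456 and 243, beside 1107 to 1420 in WT, so lymphoma 1 was within the WT range. The receptor gene Notch3 was at 3123, 8344, 521, 5396 and 608, beside 2617 to 2820 in WT. None of the 4 was called in any comparison of group means. Dtx1 in Rag2c/c p53-/- lymphomas was at 616, 1722, 3031, 8378 and 1907, high in number 4, which had the second highest Il2ra of that group. Hes1, Ptcra and Notch3 were also highest in number 4 there, but Notch3 was lowest (976) in number 3, which had the highest Il2ra.

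The members called in Rag2c/c p53-/- lymphomas were the lineage factors Runx3 and Zbtb7b. Runx3 was at 1413, 1761 and 1508 in WT thymus, at 2649, 1491, 1926, 3187 and 2301 in Atm-/- lymphomas and at 5885, 2753, 5236, 2923 and 4015 in Rag2c/c p53-/- lymphomas. All Rag2c/c p53-/- lymphomas were above all WT thymuses and 4 of 5 Atm-/- lymphomas were. Rag2c/c p53-/- lymphomas and WT did not overlap for 43.9% of all genes. Runx3 rose by 1.36 log2 units in Rag2c/c p53-/- lymphomas (SE 0.28, limma adjusted p = 0.00218), and it was called in all alternatives run, with adjusted p from 1.5e-06 to 0.0153. In Atm-/- lymphomas the difference was 0.52 (95% interval -0.07 to 1.12, adjusted p = 0.138), and between the lymphomas it was -0.83 (SE 0.24, adjusted p = 0.0394), under the fold threshold. The antisense gene Gm16224 overlaps Runx3 and reached at most 24, and the strand setting of the counting is not given in the sources used here.

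Zbtb7b went the opposite way. It was at 1431, 1553 and 1591 in WT thymus and at 206, 338, 820, 302 and 108 in Rag2c/c p53-/- lymphomas, all below WT. In Atm-/- lymphomas it was at 1398, 425, 2283, 188 and 2339, so that 3 and 5 were above all WT thymuses and 1, 2 and 4 below. Zbtb7b fell by 2.42 in Rag2c/c p53-/- lymphomas (SE 0.77, limma adjusted p = 0.0255), where 43.9% of all genes did not overlap WT. The call ended without any 1 of the WT thymuses (adjusted p = 0.0701, 0.0722 and 0.0794), without Rag2c/c p53-/- lymphoma 5 (0.0552) and without the libraries under 10 M reads (0.0842), at log2 differences of -2.80 to -2.07 when 1 library was left out. In Atm-/- lymphomas the difference was -0.75 (SE 0.77, adjusted p = 0.442), and between the lymphomas it was 1.66 (SE 0.67, adjusted p = 0.129). The antisense gene Gm15417 overlaps Zbtb7b and reached at most 107.

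**Figure D3:**
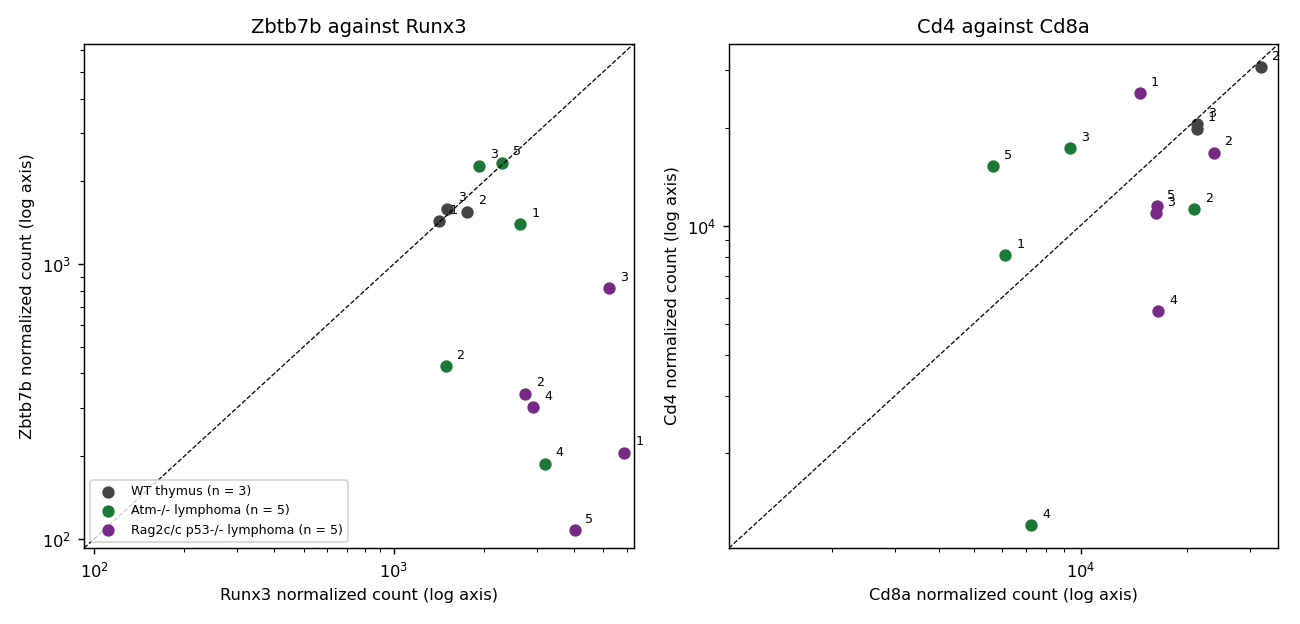
Zbtb7b against Runx3 (left) and Cd4 against Cd8a (right), normalized counts on log axes; points are libraries numbered within a group and the dashed line marks equal counts. WT thymuses lie on the line in both, and the 5 Rag2c/c p53-/- lymphomas lie below it for Zbtb7b and Runx3.

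Set against each other, Zbtb7b and Runx3 had ratios of 1.01, 0.88 and 1.06 in WT thymuses. The log2 ratio was -0.03 ± 0.14 (SD, n = 3) in WT, -1.31 ± 1.75 (SD, n = 5) in Atm-/- and -3.80 ± 1.14 (SD, n = 5) in Rag2c/c p53-/- lymphomas. All 5 Rag2c/c p53-/- lymphomas were below all WT thymuses. The difference of -3.77 gave p = 0.0357 by the exact two-sided permutation test, the smallest that 5 against 3 can give, and the difference of 2.49 between the lymphomas gave exact p = 0.0397. Over the 9 ratio tests run, both adjusted values were 0.179, so neither passed the correction. The lymphomas with the lowest Cd4 of each genotype, Atm-/- 4 and Rag2c/c p53-/- 4, had Zbtb7b at 188 and 302 and Runx3 at 3187 and 2923. For Atm-/- 4 these were the lowest Zbtb7b and the highest Runx3 of its group. Rag2c/c p53-/- 4 had the median Zbtb7b of its group and a Runx3 near the lowest (2753). Atm-/- lymphomas 3 and 5, with the highest Cd4 of their group, had the highest Zbtb7b. Rag2c/c p53-/- lymphoma 1 combined the highest Cd4 of all lymphomas with low Zbtb7b (206) and the highest Runx3 (5885).

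Tox was lower in the tumors. It was at 4490, 5259 and 4342 in WT thymus, at 2495, 1436, 495, 2553 and 1257 in Atm-/- lymphomas and at 2495, 1841, 3724, 1253 and 1604 in Rag2c/c p53-/- lymphomas. All 10 lymphomas were below all 3 WT thymuses. Of all genes tested, 51.3% did not overlap WT in Atm-/- lymphomas and 43.9% in Rag2c/c p53-/- lymphomas. The share of genes below WT in both groups was not counted. Tox fell by 1.72 in Atm-/- lymphomas (SE 0.46, limma adjusted p = 0.00882), a call that ended in 1 alternative, the fit without the libraries under 10 M reads (adjusted p = 0.0558). The difference in Rag2c/c p53-/- lymphomas was -1.21 (SE 0.46, limma adjusted p = 0.0548), and it passed when only the 2 groups were fitted (adjusted p = 0.0144). The test of the lymphomas against each other gave -0.52 (SE 0.40, adjusted p = 0.455).

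**Figure D4:**
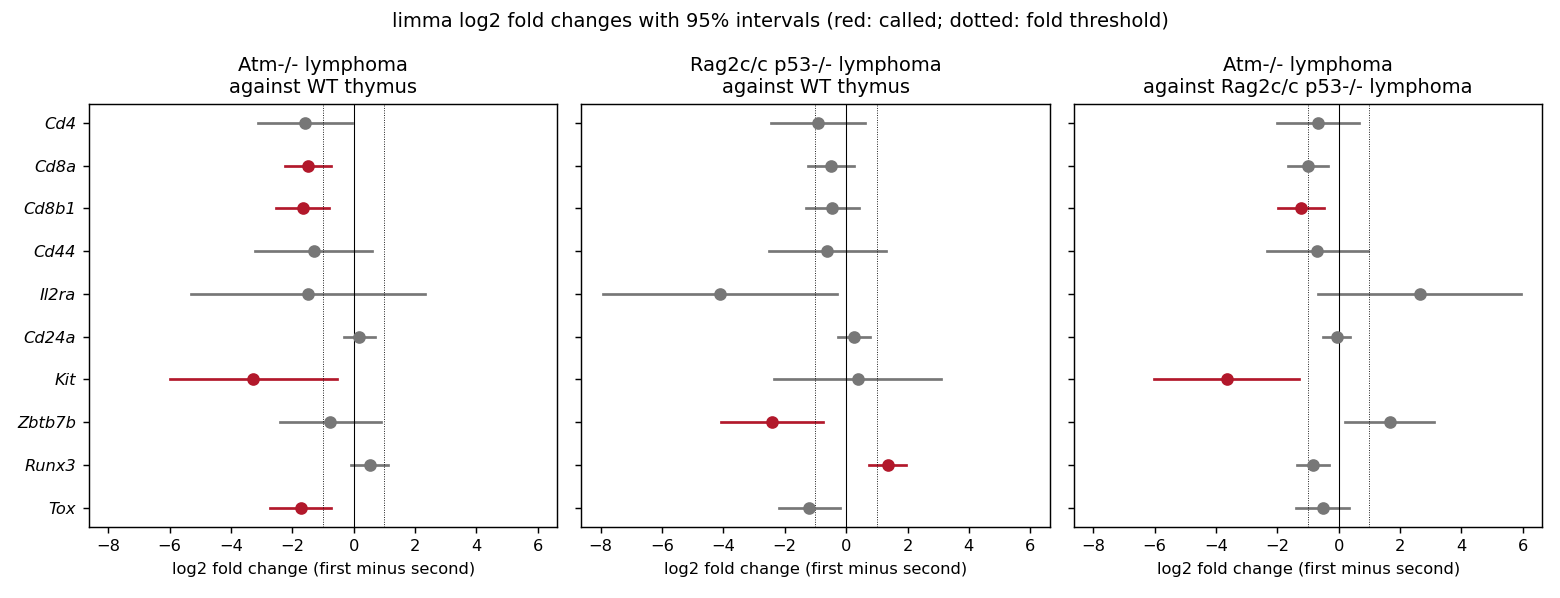
log2 fold changes of the members from limma with 95% intervals in 3 comparisons, on 1 common axis. Red marks a called gene, and dotted lines mark the fold threshold; intervals of Il2ra and Kit are the widest, and those of Cd24a, Cd8a and Runx3 among the narrowest.

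Tox2, a relative of Tox listed with the lineage factors, went the other way. It was at 228 to 250 in WT thymus, 2711 to 5293 in Atm-/- and 747 to 3428 in Rag2c/c p53-/- lymphomas, and rose by 4.09 and 2.48 log2 units (limma adjusted p = 7.01e-06 and 0.000392). It was the 1 gene of 12 lineage choice factors called higher in each comparison with WT, and it was higher in Atm-/- than in Rag2c/c p53-/- lymphomas (1.61, adjusted p = 0.00819). Satb1, a chromatin organizer of thymocytes, was called lower in both (-1.48 and -1.31) and Bcl11b, a T cell commitment factor, in Atm-/- lymphomas (-1.20). The other 9 factors, with Gata3 and Runx1 among them, were called in neither comparison. The median of the list was -0.17 and -0.36.

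Of 12 genes listed for the DP stage, 8 were called lower in Atm-/- lymphomas (median -1.33) and 5 in Rag2c/c p53-/- lymphomas (median -0.85), and none higher, where 17% and 13.9% of all genes were called lower. Endou, also on the list and chosen after its values were seen, differed the other way under the fold threshold (0.95 and 0.81, limma adjusted p = 0.0029 and 0.00962). Rag2 and Bcl6 were the most reduced in Atm-/- lymphomas (-4.04 and -3.57, limma adjusted p = 0.000624 and 0.00017), and Rag2 and Rag1, which encode the V(D)J recombinase, in Rag2c/c p53-/- lymphomas (-3.22 and -2.24, adjusted p = 0.0036 and 0.00147). Rag2 is itself the altered gene of that genotype. Of 12 mature SP genes, 7 were called lower in Atm-/- lymphomas (median -1.70) and 10 in Rag2c/c p53-/- lymphomas (median -2.60). Among them were Cd69, an activation marker of positive selection, at -4.26 and -4.42, and S1pr1, the receptor for thymic exit, at -4.11 and -5.61. Of 6 CD4 T cell genes, 5 were called lower in both groups. Cd40lg, a helper T cell ligand, was at 422 to 586 in WT thymus and at 0 to 27 in the 10 lymphomas, and Foxp3, the regulatory T cell factor, went from 236 to 240 in WT to 0 to 15.

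The genes of CD8 T cells and cytotoxicity were split. Of 8, 5 were called lower in each comparison with WT, and 1 and 2 were called higher in Atm-/- and Rag2c/c p53-/- lymphomas. Over all genes, 17% and 13.9% were called lower and 12.6% and 9.77% higher. Nkg7, a cytotoxic granule protein, was at 643 to 703 in WT and at 2 to 24 in the 10 lymphomas (log2 -7.01 and -5.26, limma adjusted p = 4.53e-07 and 1.06e-05). Gzma, a granzyme, rose by 2.22 and 1.69, from 1105 to 1296 in WT to 3663 to 6931 in Atm-/- and 2067 to 9703 in Rag2c/c p53-/- lymphomas. Tbx21, the transcription factor T-bet, rose by 2.85 in Rag2c/c p53-/- lymphomas, at 1034, 689, 311, 825 and 704 beside 84 to 101 in WT (limma adjusted p = 0.00238). It was at 56 to 662 in Atm-/- lymphomas (adjusted p = 0.118) and differed between the lymphomas (-1.67, adjusted p = 0.0496).

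Marker RNA of other cell types also differed between the groups. Against WT, 17% of all genes were called lower and 12.6% higher in Atm-/- lymphomas, and 13.9% and 9.77% in Rag2c/c p53-/- lymphomas. Summed B cell markers (6 genes) were at 1576 to 1885 in WT, 199 to 325 in Atm-/- and 219 to 554 in Rag2c/c p53-/- lymphomas, with 5 of 6 called lower in both and Cd79b the most abundant in WT. Dendritic cell markers were at 574 to 923, 221 to 439 and 144 to 554, with 3 and 4 of 6 called lower. Myeloid markers were at 3359 to 3709, 6330 to 10806 and 3688 to 7684, with 4 and 2 of 6 called higher and Lyz2 the most abundant in WT. Fibroblast and endothelial markers were at 3709 to 3846, 7802 to 20727 and 2944 to 6512, with 4 of 6 called higher in Atm-/-, and 3 higher and 1 lower in Rag2c/c p53-/- lymphomas. Those called higher were genes of fibroblast matrix. The endothelial gene Cdh5 was the one called lower (-2.93, limma adjusted p = 0.0183), and Pecam1, the most abundant in WT, was called in neither (0.43 and 0.05). Thymic epithelial markers were at 725 to 1058, 189 to 609 and 287 to 1320, with 3 and 4 of 6 called lower, and Psmb11 fell to 0 or 1 in all lymphomas. The 4 natural killer markers tested other than Gzma were at or below 64 in every lymphoma, each called lower. Erythroid markers were at 942 to 2128, 889 to 6245 and 816 to 4752, with 2 of 5 tested called higher in both. These were Epor, at 0 to 7 in WT, and Klf1, at 3 to 5 in WT, both near the floor there. The more abundant Hbb-bs, Hba-a1 and Alas2 were called in neither. Cd44 and Kit are also expressed by stromal, myeloid or mast cells, and the part of such cells in the differences was not tested.

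Per kilobase of exon, a scale on which genes can be compared, the coreceptors led. Mean levels in WT thymus were 10659 for Cd8b1, 6855 for Cd8a, 5874 for Cd4 and 2576 for Cd24a, then 621 for Il2ra, 617 for Tox, 312 for Runx3, 273 for Zbtb7b, 133 for Cd44 and 58.1 for Kit. The SDs of Cd8b1, Cd8a and Cd4 (4118, 1726 and 1510, n = 3) are about as large as the steps between them, and those of Il2ra and Tox (26.4 and 64.7) exceed theirs, so these neighbors are not ordered beyond their spread. In Rag2c/c p53-/- lymphomas the mean per kilobase of Runx3 was 832 ± 277 and of Il2ra 67.8 ± 70.2 (SD, n = 5), the reverse of the WT order.

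Between lymphomas of 1 genotype, members moved together in part. Of 6 relations planned, 4 were tested over the 10 lymphomas with values centered within genotype. Cd8a and Cd8b1 correlated with r = 0.78 (exact permutation p = 0.006, adjusted over 4 p = 0.024) and rho = 0.83 (exact p = 0.0055), and r was 0.80 without the 2 lymphomas farthest in Cd8a. Cd8a and Runx3 gave r = -0.69 (exact p = 0.0142, adjusted p = 0.0284) and rho = -0.78 (exact p = 0.0035), and -0.75 without those 2. Both relations lost significance with reads as a covariate (r = 0.58, permutation p = 0.21, and r = -0.45, permutation p = 0.259) and in the 8 lymphomas of at least 10 M reads. Cd4 was related neither to Cd8a (r = 0.16, exact p = 0.711, rho = 0.14, exact p = 0.747) nor, past the test, to Zbtb7b (r = 0.57, exact p = 0.132, rho = 0.32, exact p = 0.399), the latter falling to 0.20 without the 2 lymphomas farthest in Cd4. Relations of Il2ra with Kit and with Cd44 were not tested, because Il2ra and Kit fell into separate clusters in the Atm-/- lymphomas.

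**Figure D5:**
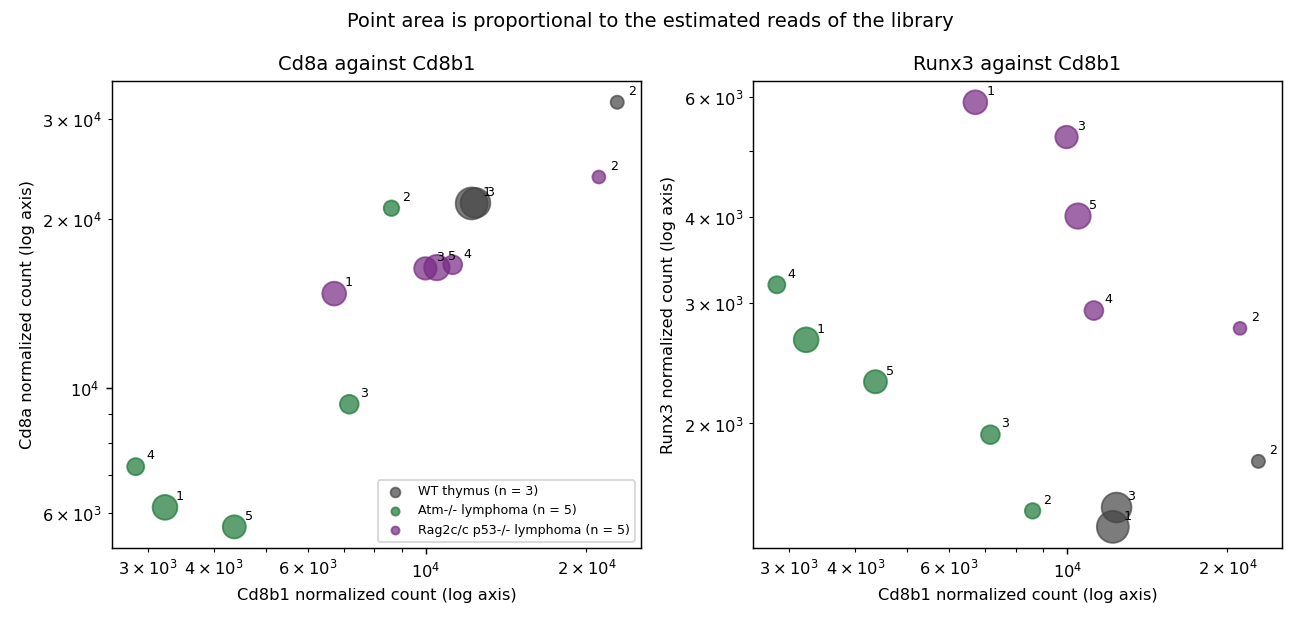
Cd8a (left) and Runx3 (right) against Cd8b1, normalized counts on log axes, in all 13 libraries numbered within groups, with point area proportional to estimated reads. Within each lymphoma genotype Runx3 is lower where Cd8b1 is higher, whereas in WT thymus Runx3 is higher where Cd8b1 is higher. The small points of the lymphomas numbered 2 sit at the high Cd8b1 end.

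All 28 pairs of the 8 members without such clusters were then examined, a step chosen after seeing the data. Cd8b1 and Runx3 gave r = -0.89 (exact permutation p = 0.0001, adjusted over 28 p = 0.0028) and rho = -0.95 (adjusted p = 0.0028), and r = -0.82 without the 2 lymphomas farthest in Cd8b1. It was the 1 pair of 28 that passed the adjustment with r, and with rho Cd8a and Runx3 passed too (exact permutation, adjusted p = 0.049). With reads as a covariate it was r = -0.82 (permutation p = 0.0167, adjusted p = 0.156), and in the lymphomas of at least 10 M reads r = -0.79 (exact p = 0.0122). Cd24a and Runx3 gave r = -0.84 (exact p = 0.0062, adjusted p = 0.0504) and r = -0.98 in the deeper lymphomas.

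The genes most like a member over the 10 lymphomas, by Pearson r of centered log2 values, are given as a description, since 10 points allow a high r for many of 15872 genes. They were Bfsp1 (r = 0.99, counts of 2 to 301) and Vangl2 (0.97, 257 to 2108) for Il2ra, Rarg (0.96) for Zbtb7b and Akr1c13 (0.91) for Kit. For Cd4 they were led by AA413626 (0.98, counts of 0 to 16), for Cd8a by Bfar (0.98) and for Cd8b1 by Cyp11a1 (0.98, 0 to 57). Those of Runx3, Tox, Cd44 and Cd24a were led by Car5a (0.97, 0 to 62), D930015E06Rik (0.94), Ptcd1 (0.98) and Psmd2 (0.98). AA413626, Cyp11a1 and Car5a thus rest on low counts.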

How the data were processed

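RNA was prepared from single-cell suspensions with the RNeasy Mini kit and libraries with the TruSeq Stranded mRNA kit. Per the labels, the authors used bcl2fastq 1.8.3, STAR 2.4.0g1 on GRCm38 (mm10) and Picard, and normalized with DESeq2 1.6.3. The study's methods describe these steps for the WT thymuses and for other tumors, not for these lymphomas. The WT samples are labelled as wild-type thymus, although another label field names them thymic lymphoma. The strand setting of the counting is not given in the sources used here. The deposited values are scores: normalized counts of reads per gene rounded to whole numbers, so no test on counts was run. The table also holds, for each lymphoma group against WT, the authors' group means, fold changes as a ratio and as log2, p-values, adjusted p-values and dispersions, none of which was used.

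Values were tested as log2(value + 1) with limma 3.58.1 (R 4.3.3) in 1 fit of 3 groups, with a trended, robust variance, for the 15872 genes of at least 10 in at least 3 libraries. A gene was called at a Benjamini-Hochberg adjusted p below 0.05, a change of at least 1 and, in at least 1 group, a mean not under 10. The code was tested on simulated data. Ratios and correlations were tested by exact two-sided permutation, the latter within genotype. Reads per library were estimated from the steps between low values, so depths are approximate. Counting error matters for the low Kit and Il2ra values. All 13 value columns were mapped to samples, and lymphomas were numbered in accession order, which pairs nothing.

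The members and gene lists were chosen with earlier results of these data known. Named genes are the members, the called genes with the highest and lowest change of each list, the most abundant gene of each cell type list and the genes most like each member. Alternatives were recomputed size factors, equal totals, a pseudocount of 4, no filter, no fold threshold, 2 groups only, library weights, each library left out and, chosen after seeing the data, reads as a covariate and libraries of at least 10 M reads. RefSeq promoters were searched for TGTGGT and ACCACA.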

Additional observations from a re-analysis of the deposited data

Results flagged for a closer look

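Within groups of 5 lymphomas, 26 combinations of a gene or ratio with a group were examined for a library far from the rest by Dixon's ratio, which chance passes about 1 time in 20. Cd4 in Atm-/- lymphoma 4 was 1201, with the next lowest of its group at 8127 (ratio 0.717). Cd8a in Rag2c/c p53-/- lymphoma 2 was 23709, with the next highest at 16564 (ratio 0.752), and this library had the fewest estimated reads, 6.37 M.

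Cd8b1 and Kit differed between the lymphoma genotypes by limma's test of that difference, with log2 values of -1.21 and -3.65, lower in Atm-/- lymphomas. The Cd8b1 call was lost in 8 alternatives and the Kit call in 11, both of them when only the 2 lymphoma groups were fitted.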

How the results depend on the processing

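No value changed direction past the test under any alternative. Of the members called against WT thymus, Cd8a and Cd8b1 (Atm-/-) and Runx3 (Rag2c/c p53-/-) passed in every alternative run. The number of members called against WT was 2 for Atm-/- lymphomas without the libraries under 10 M reads and 6 with library weights, which added Cd4 and Il2ra. For Rag2c/c p53-/- lymphomas it was 4 with only the 2 groups fitted and 4 with library weights, and 1 in libraries of at least 10 M reads. Between the lymphomas it was 1 with no filter, 4 with no fold threshold and 0 with only the 2 groups fitted. That last fit held fewer samples and left the WT thymuses out of the shared error. Which of these mattered was not tested. Leaving out 1 library gave 3 to 4, 1 to 3 and 0 to 2 members called in the 3 comparisons, with 0 without Rag2c/c p53-/- lymphoma 2, 4 or 5. With no fold threshold, 5884 genes were called in Rag2c/c p53-/- lymphomas against WT, in place of 3750. In libraries of at least 10 M reads, the log2 Zbtb7b to Runx3 ratio differed by -4.04 (Rag2c/c p53-/- against WT, exact p = 0.133) and by 2.81 (between lymphomas, exact p = 0.0857). With 1 library left out it differed by -4.05 to -3.42 and by 2.10 to 3.18; without 1 WT thymus the smallest two-sided p is 0.0952. The relation of Cd8a and Cd8b1 was r = 0.583 with reads as a covariate and 0.638 in deeper libraries, and that of Cd8a and Runx3 was -0.448 and -0.366; with 1 lymphoma left out they were 0.75 to 0.83 and -0.76 to -0.59, the latter past p = 0.05 without Atm-/- lymphoma 1 or 2. The cause of these moves was not tested. Relations of Il2ra with Kit and Cd44 were not run. No paired analysis was possible because the lymphomas carry no shared replicate numbers in the labels.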

Other observations

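Atm-/- lymphoma 4 had the highest Runx3 of its group (3187) with the lowest Cd4 (1201), the lowest Zbtb7b (188) and high Il2ra (9640). Atm-/- lymphomas 3 and 5 had low Il2ra (50 and 93), high Zbtb7b (2283 and 2339) and Cd4 above Cd8a, and differed in Kit (16 and 648) and Cd44 (261 and 1575). Cd2, a T cell adhesion receptor chosen after its values were seen, was at 5361, 11765, 1262, 9799 and 2337 in Atm-/- lymphomas 1 to 5, in the same order as Dtx1.

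Il7r, the interleukin-7 receptor of DN and SP cells, was at 2860 to 7078 in Atm-/- and 188 to 1967 in Rag2c/c p53-/- lymphomas, beside 1819 to 2398 in WT thymus, and differed between the lymphomas (2.52, limma adjusted p = 0.0114). Ms4a6b, a gene of mature T cells, was also higher in Atm-/- than in Rag2c/c p53-/- lymphomas (2.14, limma adjusted p = 0.00533).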
